A study of Mus musculus with 4 samples.

Results

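The extracellular matrix proteases examined here are the matrix metalloproteinases (Mmp), the ADAM and ADAMTS proteases, and their inhibitors, the TIMPs. Members were the genes whose symbol in the platform annotation is Mmp, Adam, Adamts or Timp followed by a number, with an a or b after it where Mmp or Adam paralogs carry one. The rule found 65 of the 18193 genes with a probe set of their own: 18 Mmp, 28 Adam, 15 Adamts and 4 Timp genes. Where a gene had several probe sets, the one brightest on average over the 4 arrays stood for it. RNA came from C2C12 cells, a mouse myoblast line that was labelled as differentiating in every group. One array held cells given tranylcypromine (TC), 1 held cells given S2101, and 2 held cells given vehicle. Both compounds are labelled as inhibitors of the histone demethylase LSD1, and the labels give no dose. The culture medium held 25 mM glucose throughout. Serum was 10% fetal bovine serum during growth and 2% horse serum during differentiation, and RNA was taken after 48 h with compound or vehicle. C2C12 is a single established line. Separate cultures are not stated in the labels, so the p-values reflect the spread among these 4 samples alone. That spread may be technical, and between the inhibitor arrays it also holds any difference between the compounds.

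Matrix metalloproteinases cut collagens, fibronectin and other matrix proteins around the cell, and most are secreted as inactive precursors. ADAMs sit in the cell membrane and release the outer parts of other membrane proteins, among them growth factors and Notch receptors. ADAMTS proteases are secreted and cut matrix proteoglycans such as versican. TIMPs are small secreted proteins that block the active site of these enzymes. In muscle, members of these families are known for remodelling the matrix while myoblasts move, fuse and regenerate fibres.

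Labels were checked against marker genes. All 7 muscle markers with a probe set, Des, Myod1, Myog, Mymk, Myh3, Ckm and Acta1, lay at or above the median gene on average. Their summed signal was 72051 with TC and 65471 with S2101, against 68231 and 68205 on the vehicle arrays. No marker of leukocytes (5 genes), endothelium (4), adipocytes (2) or neurons (3) reached the median gene, the highest mean signal among them being 129.9. Signals of the 9097 genes tested, on the log2 scale, correlated between arrays at r = 0.982 to 0.994.

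Of the 65 members, 19 had a mean signal at or above that of the median gene (178.8) and were tested. They were Timp1, Timp2 and Timp3, Mmp2, Mmp11 and Mmp14, 6 Adam genes and 7 Adamts genes. Signals are MAS5 intensities scaled by array, and they can be compared between arrays for 1 probe set but not between genes. Adamts15 (mean signal 273.2) was the dimmest member tested, and Adam4 (166.8) the brightest of the 46 that were not.

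**Figure D1:**
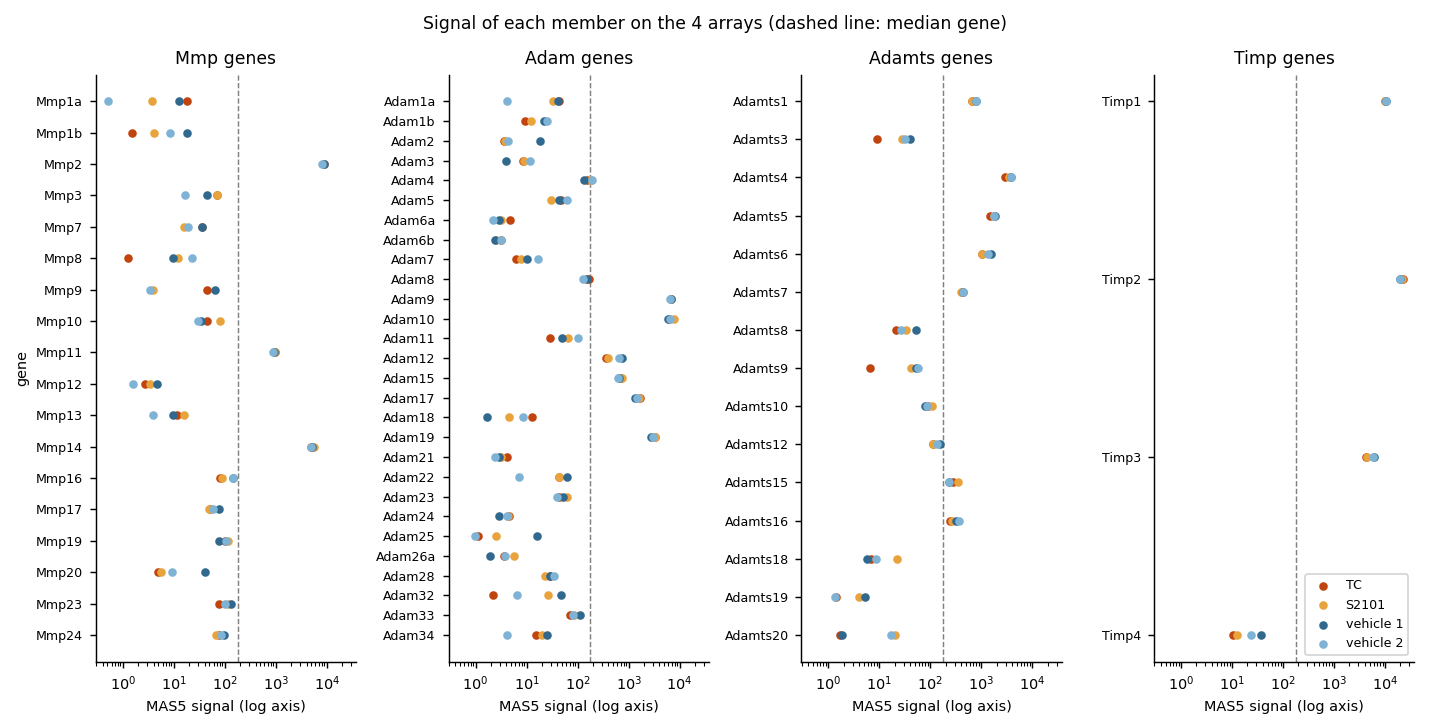
MAS5 signal (log axis) of each of the 65 members on the TC, S2101 and 2 vehicle arrays, by family. The dashed line marks the median gene (178.8), above which the mean of 19 members lay. Values for different genes come from different probe sets and do not rank the genes.

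Timp3, Adam12 and Adamts6 carry the main differences, and of these a promoter sequence was used for Timp3. The 250 bases before its transcription start are set beside those of Timp2 and Timp1, the TIMPs that were tested and did not pass. The sequences are from RefSeq (GRCm38.p6), written 5′ to 3′ on the gene's strand, and lie on the plus strand at chr10:86300162-86300411 for Timp3, on the minus strand at chr11:118355412-118355661 for Timp2 and on the plus strand at chrX:20869916-20870165 for Timp1. Capitals mark matches on either strand to AP-1 (TGANTCA), TEAD (CATTCC), the GC box of SP factors (GGGCGG) and a single form of the E-box (CAGCTG).
Timp3: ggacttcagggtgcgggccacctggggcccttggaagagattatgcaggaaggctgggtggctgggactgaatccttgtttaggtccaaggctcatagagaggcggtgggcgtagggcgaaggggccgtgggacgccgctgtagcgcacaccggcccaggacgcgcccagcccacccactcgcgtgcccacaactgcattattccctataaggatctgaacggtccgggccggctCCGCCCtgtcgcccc
Timp2: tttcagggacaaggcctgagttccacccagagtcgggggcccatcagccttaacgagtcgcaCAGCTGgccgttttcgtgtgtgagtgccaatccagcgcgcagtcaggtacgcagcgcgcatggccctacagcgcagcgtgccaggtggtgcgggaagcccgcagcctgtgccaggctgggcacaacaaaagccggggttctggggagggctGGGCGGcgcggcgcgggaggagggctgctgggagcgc
Timp1: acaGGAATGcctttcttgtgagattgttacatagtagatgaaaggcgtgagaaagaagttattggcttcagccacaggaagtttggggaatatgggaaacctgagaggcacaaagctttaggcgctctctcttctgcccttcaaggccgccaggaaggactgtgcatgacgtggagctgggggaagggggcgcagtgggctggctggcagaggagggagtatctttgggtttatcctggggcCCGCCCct
Each holds 1 GC box, 15 bases before the start in Timp3, 37 in Timp2 and 8 in Timp1, counted from the first base of the match. Timp2 also holds CAGCTG, the only form of the E-box searched for, and Timp1 a TEAD match. Other forms of the E-box were not marked in any window. None of the 3 windows holds TGANTCA. Over all 32851 promoter windows of this length, 32.7% held the GC box, 13% the E-box, 12.6% the TEAD match and 6.75% the AP-1 match. Promoters were listed for 37 of the 65 members and 10 of the 19 tested. Of these 10, 9 held the GC box, 3 the E-box, 2 the TEAD match and 1 the AP-1 match. A member with several windows counted if any of them held the match, whereas the shares above count single windows. All 10 had also passed the signal filter, whereas the windows were not chosen by signal. These counts therefore cannot be set against those shares. A match describes letters and not a site that is bound.

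The first comparison set the TC and S2101 arrays together (n = 2) against the vehicle arrays (n = 2). Pooling the compounds was a choice made here, and their arrays are not replicates of the same treatment. Timp3, Adam12 and Adamts6 fell, no member rose, and 16 members did not pass the test (limma, Benjamini-Hochberg over 9097 genes, threshold 0.05). Over all genes tested 8.01% passed, 3.74% lower and 4.28% higher. Differences are on the scale of log2(signal + 50), which understates the change of dim genes. The median difference of the 19 members was 0.03, against 0.01 over all genes tested, and the median absolute difference was 0.19 against 0.12. On 14 of the 19 members both inhibitor arrays lay beyond both vehicle arrays, 6 above and 8 below. Over all genes tested 51.1% did so, 27.6% above and 23.4% below. In bulk RNA, fewer cells of a kind and less RNA per cell cannot be told apart for any of these differences.

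**Figure D2:**
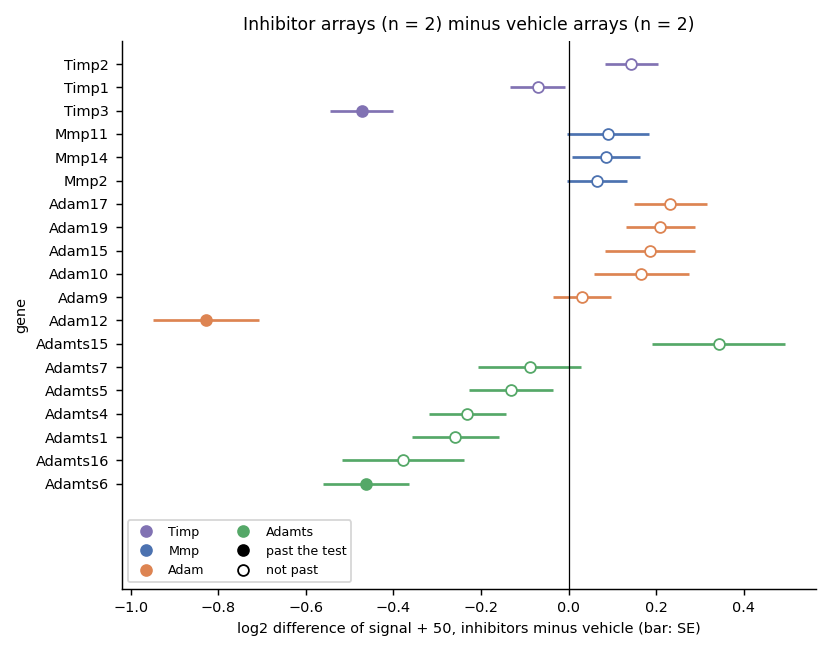
Log2 difference of signal + 50, inhibitor arrays (n = 2) minus vehicle arrays (n = 2), for the 19 members tested, coloured by family. Bars are standard errors and filled points passed the test at an adjusted p of 0.05. Timp3, Adam12 and Adamts6 are the 3 filled points, all below 0.

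Timp3 is the TIMP that binds to the matrix and is known to inhibit ADAM17 and the aggrecan-cutting ADAMTS proteases as well as matrix metalloproteinases. The TC array gave a signal of 4173 and the S2101 array 4347, against 6171 and 5698 with vehicle. Both inhibitor arrays lay below both vehicle arrays, and the mean signal fell by 28.2%. The log2 difference was -0.47 ± 0.07 (SE, adjusted p = 0.00336, limma). The 3 further probe sets of Timp3 were also at or above the median gene, with log2 differences of -0.51, -0.64 and -0.49. On all 4 the inhibitor arrays lay below the vehicle arrays. When probe sets were tested singly, a setting chosen after the data were seen in which 4.85% of 14922 probe sets passed, 3 of the 4 fell. The fourth stood at -0.49 ± 0.12 (adjusted p = 0.0608, limma).

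Timp2, which inhibits matrix metalloproteinases and also helps Mmp14 to activate Mmp2, had signals of 21984 with TC and 21080 with S2101, against 19495 and 19473 with vehicle. Both inhibitor arrays lay above both vehicle arrays, at 0.14 ± 0.06 on the log2 scale, short of the threshold (adjusted p = 0.196, limma). It passed with quantile normalization (0.18, adjusted p = 0.0424, limma). The other bright probe sets of Timp2 gave larger differences, from 0.26 to 0.51, and on each of its 5 bright probe sets the inhibitor arrays were higher. Tested singly, 1 of these 5 rose, with signals of 4137 with TC and 4183 with S2101 against 3077 and 2728 with vehicle (0.51 ± 0.08, adjusted p = 0.00968, limma). Timp1, the secreted inhibitor often induced in injured tissue, had signals of 9983 and 9954 with TC and S2101, against 10523 and 10420 with vehicle. The inhibitor arrays lay below the vehicle arrays, at -0.07 ± 0.06 on the log2 scale (adjusted p = 0.565, limma). Timp4 was dim, at 10.5 with TC and 12.6 with S2101 against 36.3 and 23.2 with vehicle, and was not tested.

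**Figure D3:**
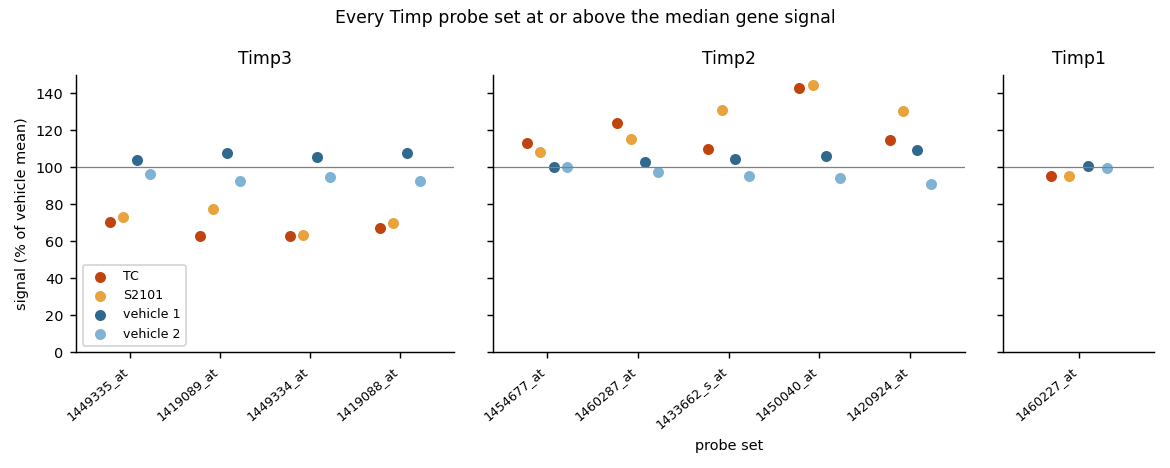
Signal on each array as a percentage of the vehicle mean for every probe set of Timp3, Timp2 and Timp1 at or above the median gene signal, with the TC, S2101, vehicle 1 and vehicle 2 arrays from left to right. Timp3 values on the inhibitor arrays run from 62.5% to 77.6%, those of Timp2 from 108.2% to 144.1%, and those of Timp1 stand at 95.1% and 95.3%.

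The 3 matrix metalloproteinases tested did not pass in either direction. Mmp2, gelatinase A, had signals of 8914 with TC and 8795 with S2101, against 8815 and 8114 with vehicle, and the groups overlapped (0.07 ± 0.07, adjusted p = 0.635, limma). Mmp14, the membrane-bound collagenase that activates Mmp2, had 4982 and 5529 with TC and S2101, against 5090 and 4802 with vehicle, also overlapping (0.09 ± 0.08, adjusted p = 0.574). Mmp11, also called stromelysin-3, had 958.5 and 949.3 with the inhibitors against 924.5 and 862.4 with vehicle (0.09 ± 0.09, adjusted p = 0.634). One of 2 other bright probe sets of Mmp14 differed the other way (-0.09), and the other bright probe set of Mmp2 stood at 0.06.

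Adam12, or meltrin alpha, is an ADAM with a known role around myoblast fusion and in regenerating muscle, and it can cut IGF binding proteins. The TC array gave a signal of 355.0 and the S2101 array 397.9, against 756.4 and 659.1 with vehicle. The TC array stood at 50.2% and the S2101 array at 56.2% of the vehicle mean, and the mean of both fell by 46.8%. The log2 difference of -0.83 ± 0.12 was the largest among the 19 members in either direction and passed the test (adjusted p = 0.00271, limma). With offsets of 2% and 50% of the trimmed mean it was -0.89 and -0.61. A second, dimmer probe set was also lower on both inhibitor arrays, at 68.5 with TC and 67.8 with S2101 against 92.5 and 144.9 with vehicle.

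The other 5 Adam genes tested had positive differences and did not pass. Adam17, the sheddase of TNF and many growth factors, had signals of 1660 with TC and 1631 with S2101, against 1352 and 1436 with vehicle (0.23 ± 0.08, adjusted p = 0.127, limma). The groups did not overlap, but its 2 other bright probe sets stood at -0.02 and 0.04. Adam19, meltrin beta, had 3292 and 3295 with the inhibitors against 2694 and 2997 with vehicle (0.21 ± 0.08, adjusted p = 0.145), and 0.01 in its other bright probe set. Adam15 had 710.9 and 745.5 with the inhibitors, against 655.6 and 613.5 with vehicle (0.19 ± 0.10, adjusted p = 0.330), and 0.25 in its other bright probe set. Adam9, meltrin gamma, had overlapping signals of 6870 and 6695 with the inhibitors against 6759 and 6512 with vehicle (0.03 ± 0.07, adjusted p = 0.835).

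Adam10, the main sheddase of Notch receptors and of the amyloid precursor protein, was the member, of the 19 tested, on which the TC and S2101 arrays lay farthest apart. The TC array gave a signal of 6068 and the S2101 array 7856, against 5905 and 6401 with vehicle. TC lay between the vehicle arrays and S2101 above both. For the pair of inhibitors the difference was 0.17 ± 0.11 (adjusted p = 0.412, limma). Its other bright probe set ordered the compounds the other way, at 1772 with TC and 1568 with S2101 against 1527 and 1474 with vehicle.

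Among the 7 Adamts genes, Adamts6 fell and 6 did not pass. Adamts6, a secreted protease linked to fibrillin microfibrils, had signals of 1035 with TC and 1037 with S2101, against 1567 and 1337 with vehicle. The inhibitor arrays nearly coincided, below both vehicle arrays, and the log2 difference was -0.46 ± 0.10 (adjusted p = 0.0173, limma). The call ended without the first vehicle array (-0.35, adjusted p = 0.123, limma), with dim genes kept in (0.0873), with the variance fitted without a trend (0.0594) and with probe sets averaged (0.141). A second probe set just below the filter gave 160.6 and 148.0 with the inhibitors against 240.3 and 161.2 with vehicle.

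The remaining Adamts genes include the enzymes known to cut versican and aggrecan, Adamts1, Adamts4, Adamts5 and Adamts15. Adamts4 had signals of 2925 with TC and 3465 with S2101, against 3745 and 3746 with vehicle (-0.23 ± 0.09, adjusted p = 0.150, limma). Its other bright probe set stood at -0.28 with overlapping groups, at 112.4 with TC and 227.9 with S2101 against 183.6 and 233.6 with vehicle. Adamts1 had 642.4 and 664.1 with the inhibitors against 785.3 and 796.9 with vehicle (-0.26 ± 0.10, adjusted p = 0.150). On the probe set standing for each of these genes, the inhibitor arrays lay below the vehicle arrays. Adamts5, which lies beside Adamts1 on chromosome 16 with no other protein-coding gene between them in the RefSeq table used, had 1503 with TC and 1781 with S2101, against 1828 and 1766 with vehicle. Its groups overlapped (-0.13 ± 0.10, adjusted p = 0.469), and its 2 other bright probe sets stood at -0.19 and -0.07.

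Adamts16 had signals of 247.2 and 262.3 with the inhibitors, against 323.4 and 369.5 with vehicle (-0.38 ± 0.14, adjusted p = 0.137, limma). Adamts7, known to cut cartilage oligomeric matrix protein, had 410.7 and 398.8 with the inhibitors against 431.9 and 435.2 with vehicle (-0.09 ± 0.12, adjusted p = 0.719). Adamts15 was the 1 Adamts gene tested with a positive difference, at 277.8 with TC and 346.4 with S2101 against 236.8 and 231.8 with vehicle (0.34 ± 0.15, adjusted p = 0.215). The median difference was -0.23 for the 7 Adamts genes, 0.18 for the 6 Adam genes and 0.09 for the 3 Mmp genes. These medians rest on few genes and describe them without a test.

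Each compound was also set against the vehicle arrays alone, in a fit with 3 groups. Each compound has 1 array whose own spread was not measured, so the fit takes it to vary like the vehicle pair, and these calls have no replicate check. These comparisons share the vehicle arrays, and the unstated doses mean that the compounds cannot be matched. On the TC array 4 members were lower past the test and none higher, where 8.18% of all genes passed, 3.81% lower and 4.36% higher. They were Timp3 (-0.50 ± 0.08, adjusted p = 0.00586, limma), Adam12 (-0.90 ± 0.15, 0.00657), Adamts4 (-0.35 ± 0.08, 0.0230) and Adamts6 (-0.46 ± 0.12, 0.0418). On the S2101 array 3 members were lower past the test and 1 higher, where 6.71% of all genes passed, 3.33% lower and 3.37% higher. Those lower were Timp3 (-0.44 ± 0.08, adjusted p = 0.0109, limma), Adam12 (-0.76 ± 0.15, 0.0160) and Adamts6 (-0.46 ± 0.12, 0.0480), and Adam10 was higher (0.35 ± 0.08, 0.0259). Averaging all probe sets of Adam10, dim ones with mean signals of 130.3 and 28.7 included, turned its difference with S2101 to -0.049. Without the dim-gene filter or without the variance trend, no member passed for either compound. The share of all genes passing in those fits is not given here, so the members cannot be set against it.

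**Figure D4:**
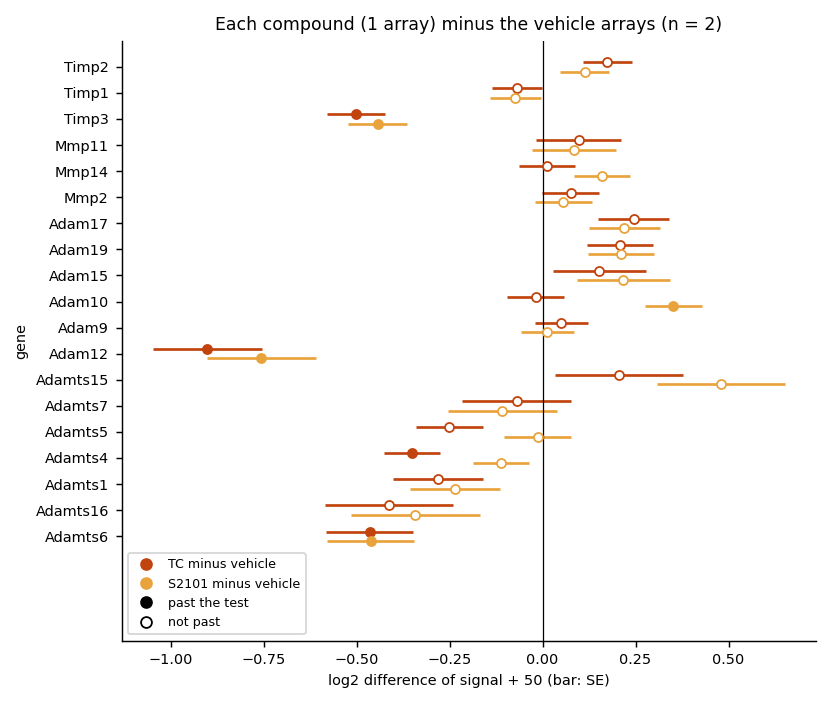
Log2 difference of signal + 50 from the vehicle arrays (n = 2) for the TC array and the S2101 array, for the 19 members tested. Bars are standard errors and filled points passed the test. Timp3, Adam12 and Adamts6 are filled for both compounds, Adamts4 for TC and Adam10 for S2101.

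Set against each other, the TC and S2101 arrays differed past the test on 0 of the 19 members, and on 0.033% of all genes (limma). With 1 array each, that fit takes its spread from the vehicle pair and from all genes tested. It compares these arrays rather than the compounds. The largest differences among the 19, TC minus S2101, were -0.37 for Adam10, -0.27 for Adamts15 and -0.24 for both Adamts4 and Adamts5. Timp3 stood at -0.06, Adam12 at -0.15 and Adamts6 at -0.003.

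The 46 members below the filter had mean signals from 2.85 to 166.8, and 35 of them had a mean below 50. On 20 of them the inhibitor arrays lay beyond the vehicle arrays, 7 above and 13 below, where 35.3% of the genes below the filter did so, and 0 passed when every gene was tested (limma, 1.46% of all 18193 genes passed). The gelatinase Mmp9, the interstitial collagenases Mmp1a, Mmp1b, Mmp8 and Mmp13, and the stromelysins Mmp3 and Mmp10 were all among them. All 9 Mmp genes on chromosome 9 were below the filter, with mean signals from 3.11 to 49.9. Of the 9 on other chromosomes 3 were tested. In the RefSeq table used, Mmp13, Mmp12, Mmp1b, Mmp3, Mmp1a, Mmp10 and Mmp8 follow each other with no other protein-coding gene between them.

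Of the dim members, Mmp16, a membrane-bound matrix metalloproteinase, had signals of 81.5 with TC and 86.3 with S2101, against 143.2 and 142.1 with vehicle. Both inhibitor arrays lay below both vehicle arrays. The fit without a filter gave -0.52 ± 0.20 (adjusted p = 0.304, limma). Adamts12 had 112.0 and 110.7 with the inhibitors, against 151.4 and 135.9 with vehicle. Signals of Adam4, Adam8, Mmp19 and Mmp23 overlapped between the groups. They lay between 77.7 and 195.2 on every array.
Mmp3 had 68.7 and 69.5 with the inhibitors against 44.6 and 16.6 with vehicle, and Mmp10 had 45.7 and 82.1 against 33.9 and 29.7, both named after their values were seen. The vehicle arrays alone differed on Mmp9, with 64.6 and 3.4, so single arrays at this level carry little information. The other dim members were Adam1a, Adam1b, Adam2, Adam3, Adam5, Adam6a, Adam6b, Adam7, Adam11, Adam18, Adam21, Adam22, Adam23, Adam24, Adam25, Adam26a, Adam28, Adam32, Adam33, Adam34, Adamts3, Adamts8, Adamts9, Adamts10, Adamts18, Adamts19, Adamts20, Mmp7, Mmp12, Mmp17, Mmp20 and Mmp24. Many of these Adam genes, such as Adam2 and Adam3, are known from testis and sperm. A further 5 probe sets carried several symbols including a member and were not used.

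Genes that work with these proteases were taken from 7 lists, of which 55 genes were tested and 12 passed, where 8.01% of all genes tested did so. The lists were chosen with earlier results of these data known, so the count cannot be set against that share. Among genes shed or cut by ADAM and ADAMTS proteases, 3 of 14 fell, 1 rose and 10 did not pass. Their median difference was 0.02. Hbegf, an EGF-family growth factor released by ADAMs, had signals of 525.0 with TC and 555.6 with S2101, against 1051 and 905.8 with vehicle (-0.80 ± 0.11, adjusted p = 0.00194, limma). Vcan, the versican core protein, had 3373 and 3032 with the inhibitors, against 5143 and 5072 with vehicle (-0.67 ± 0.08, 0.000751). On both genes the inhibitor arrays were far below the vehicle arrays. The Notch ligand Jag1 stood at -0.61 ± 0.13 (adjusted p = 0.0196, limma), and Igfbp5, a secreted IGF binding protein abundant in differentiating myoblasts, rose by 0.33 ± 0.07 (0.0191). Without the second vehicle array the calls of Jag1 (-0.43) and Igfbp5 (0.25) ended, as they did without the TC array (-0.58 and 0.30). Both also ended without the dim-gene filter (adjusted p = 0.119 and 0.141, limma) and without the variance trend (0.0543 and 0.119). The call of Jag1 ended with probe sets averaged too (-0.34, adjusted p = 0.304, limma). Averaging probe sets ended the call of Vcan (-0.19, adjusted p = 0.383, limma), though its 2 other bright probe sets stood at -0.59 and -0.33.

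Among 7 partners that carry or activate ADAMs, 1 rose, none fell and 6 did not pass. Tspan15, a tetraspanin that binds Adam10, had signals of 2460 with TC and 2024 with S2101, against 1450 and 1498 with vehicle. It rose by 0.58 ± 0.10 (adjusted p = 0.00570, limma), and its call ended without the dim-gene filter (0.0565). The related tetraspanins Tspan5 (0.28) and Tspan14 (0.17) and the iRhom gene Rhbdf1 (-0.11) did not pass.

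Of 8 genes of protease activation and surface docking, Plat, the tissue plasminogen activator, fell and 7 did not pass. The TC array gave a signal of 2142 and the S2101 array 2482, against 3234 and 3616 with vehicle (-0.56 ± 0.09, adjusted p = 0.00490, limma). Plau, or urokinase (-0.27), Klk1 (-0.20) and the hyaluronan receptor Cd44 (-0.11) did not pass. Averaging in the probe sets of Plat below the filter gave -0.21 and ended its call (adjusted p = 0.336, limma). The call of Plat also ended without the dim-gene filter (adjusted p = 0.0537, limma).
The 3 other inhibitors and clearance genes tested did not pass with the compounds pooled. They were Reck, a membrane-anchored inhibitor of matrix metalloproteinases (-0.30 ± 0.15), the scavenger receptor Lrp1 (0.24 ± 0.11) and cystatin C, Cst3 (0.10 ± 0.06). Signals of Lrp1 were 2840 with TC and 3632 with S2101, against 2803 and 2637 with vehicle.

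Of 9 other matrix and lysosomal proteases and their helpers, 3 rose, 1 fell and 5 did not pass. Their median difference was 0.15. The cysteine protease cathepsin B, Ctsb, had signals of 12784 with TC and 12267 with S2101, against 8963 and 8785 with vehicle (0.49 ± 0.06, adjusted p = 0.00137, limma). Lgmn, the lysosomal protease legumain, rose by 0.45 ± 0.09 (0.00961) and the secreted serine protease Htra3 by 0.47 ± 0.10 (0.0167). Pcolce2, which enhances the trimming of procollagen, had 1407 and 1224 with the inhibitors, against 2039 and 1974 with vehicle, a log2 difference of -0.59 ± 0.09 (adjusted p = 0.00342, limma). Of these 4, Ctsb and Pcolce2 kept their calls under the 12 alternatives run for each. Lgmn lost its call without the first vehicle array (0.38), without the dim-gene filter (adjusted p = 0.0595, limma) and without the variance trend (0.0543). Htra3 lost its call without the second vehicle array (0.44) and without the S2101 array (0.39). Its call also ended without the dim-gene filter (adjusted p = 0.0743, limma) and with probe sets averaged (0.25, 0.400).

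The 5 ADAMTS-like genes tested, which resemble ADAMTS proteases but lack the catalytic domain, did not pass. Adamtsl4 stood at 0.39 ± 0.15, Adamtsl3 at -0.35 ± 0.15, Adamtsl5 at 0.35 ± 0.11 and Adamtsl1 at 0.14 ± 0.14. Of 9 AP-1 and ETS factors with known sites in Mmp promoters, 2 rose and 7 did not pass. Ets2 rose by 0.35 ± 0.07 (adjusted p = 0.0134, limma) and Jund by 0.30 ± 0.07 (0.0357), while Etv5 (-0.50 ± 0.17) and Fosl1 (-0.37 ± 0.17) did not pass. The calls of Ets2 and Jund ended when either vehicle array was left out, and that of Jund also without the S2101 array (0.24). Both ended without the variance trend (adjusted p = 0.0703 and 0.130, limma) and with probe sets averaged (0.331 and 0.237). The call of Jund also ended without the dim-gene filter (adjusted p = 0.120, limma).

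**Figure D5:**
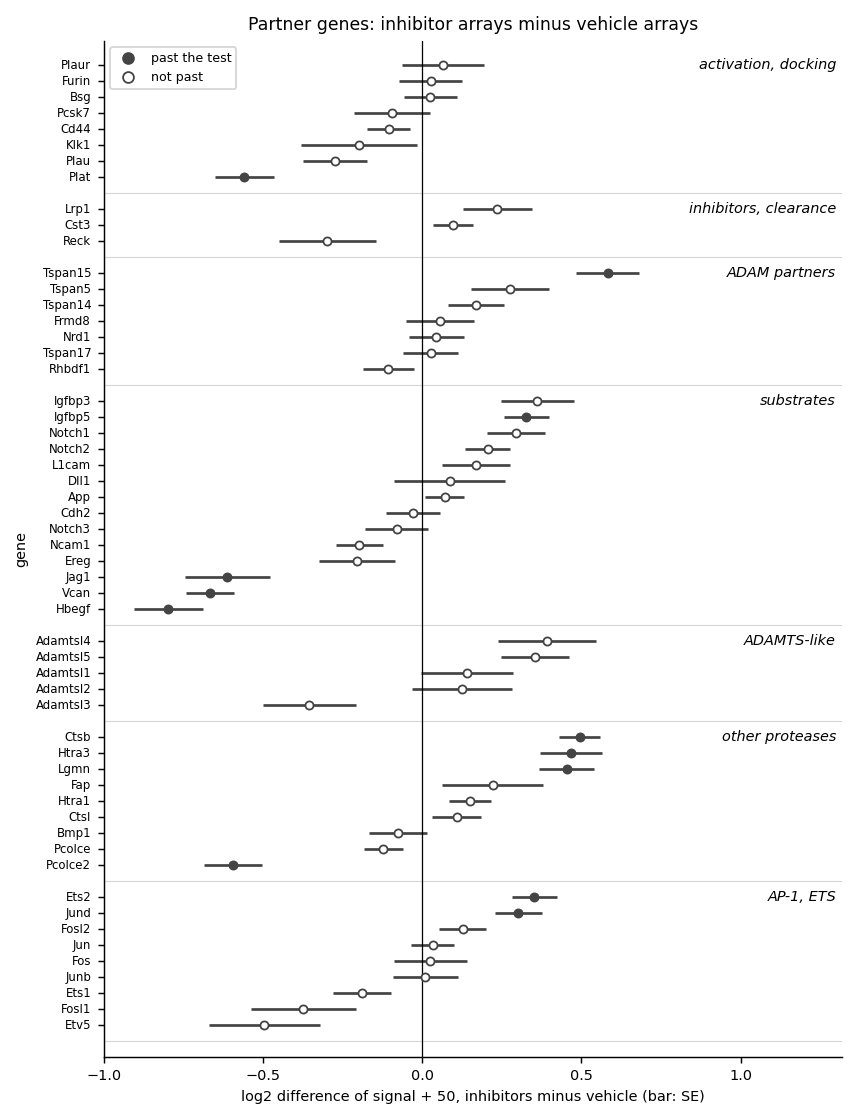
Log2 difference of signal + 50, inhibitor arrays (n = 2) minus vehicle arrays (n = 2), for 55 genes on 7 lists of protease partners. Bars are standard errors and filled points passed the test. Hbegf, Vcan, Jag1, Plat and Pcolce2 are the filled points below 0, and Tspan15, Igfbp5, Ctsb, Htra3, Lgmn, Ets2 and Jund those above.

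Of 4 markers that C2C12 cells can share with fibroblasts, 3 were tested and 1 passed, where 8.01% of all genes tested did. The summed signal of Pdgfra, Thy1, Dcn and Acta2, most of it from Acta2 and Dcn, was 41331 with TC and 40568 with S2101, against 47145 and 45744 with vehicle. The matrix proteoglycan decorin, Dcn, was lower, at -0.23 (adjusted p = 0.0480, limma), while Acta2 (-0.16, adjusted p = 0.152) and Pdgfra (0.17, 0.495) did not pass. Thy1 was dim on every array. The part of these markers in the results was not tested. None of the 7 muscle markers passed, with differences from -0.16 for Myh3 to 0.18 for Des.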

How the data were processed

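The authors deposited 1 linear intensity (MAS5 signal) for every probe set. MAS5 and Affymetrix Expression Console are named in the submitters' processing notes, with versions not given in the sources used here. Per the labels' protocols, biotinylated cRNA was prepared from 250 ng of total RNA. Each array had a 2% trimmed mean of 500.0, and median signals ran from 63.1 to 74.8. With 4 arrays, their number limits the precision.

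Of 45101 probe sets, 64 were array controls, 34945 had 1 gene symbol, 932 several and 9160 none in the platform annotation. Of those with 1 symbol, 34741 had a gene identifier that matched the RefSeq table (GRCm38.p6). No genome was used. The brightest probe set stood for each of 18193 genes, and the 9097 whose mean signal reached that of the median gene entered the tests. Values were log2(signal + 50), an offset of 10% of that trimmed mean. Models were fitted in R 4.3.3 with limma 3.58.1, using lmFit and then eBayes with a trend on intensity. Benjamini-Hochberg adjustment ran over all genes tested, at 0.05. The TC and S2101 arrays were taken as 1 arm (2 residual degrees of freedom) or as separate groups (1). To these eBayes added a median of 8.08 and 8.37 prior degrees of freedom, drawn from all genes tested. The fit was tested on simulated data. Alternatives were other offsets, filters and normalization, no trend, averaged probe sets with dim ones included, each array left out and a replicate block. Named genes were every tested member, the 6 brightest below the filter and up to 4 genes per partner list, those past the test first and then by size of difference. Members, lists and tests were chosen with earlier results of these data known.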

Additional observations from a re-analysis of the deposited data

How the results depend on the processing

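For the pooled inhibitors against vehicle, Timp3 and Adam12 kept their direction and passed under every alternative run (12 and 11, Adam12 lying below the filter at the 75th percentile), with log2 differences from -0.53 to -0.42 and from -0.92 to -0.61. Adamts6 kept its direction under 12 and its call under 8. For the inhibitors against vehicle, 3 of the 19 members passed, where 8.01% of all genes tested did. Fits with a single array left out hold 1 array in an arm, so their counts of members passing are not given. Adamts4 stood at -0.35 without the S2101 array and Adam10 at 0.35 without the TC array, while without S2101 Adam10 turned to -0.019. Averaging probe sets, dim ones included, turned Adam10 with S2101 to -0.049 and ended the S2101 calls of Adam10 and Adamts6. Without the filter 0 members passed with TC (limma, 8 at an unadjusted p under 0.05) and 0 with S2101 (7), and without the trend 0 with TC (6) and 0 with S2101 (6). Over all genes, 729 passed, 266 without the filter, 457 with the filter at the 75th percentile, 423 without the trend, 478 with probe sets averaged and 1223 with the replicate block. The cause of these shifts was not tested. The sample descriptions, though not the titles of the inhibitor arrays, number the vehicle arrays 1 and 2, TC 1 and S2101 2. With this number as a replicate block 3 members passed, where 1223 of all genes tested did, against 729 without the block. The deviations of arrays with the same number correlated at 0.07, and nothing else pairs them. With 1 vehicle array left out, the fit with 3 groups has no residual degrees of freedom and was not run. The median of the members tested was 0.03, and -0.019 without the S2101 array. Of 12 partner genes past the test, 7 lost their call without the filter, 6 with probe sets averaged, 5 without the trend and 2 to 5 with 1 array left out.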
